A study of Mus musculus with 7 samples.

Results

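The genes Crh, Crhbp and Crhr1 of the corticotropin-releasing hormone (CRH) system were followed through the cell types of the mouse visual cortex and through the open chromatin of 3 interneuron populations. They were chosen by name, as the ligand, the binding protein and a receptor of 1 signalling system, and are 3 of the 25871 non-viral genes with a column in the single-nucleus count tables. Cell types were defined by marker genes other than these 3, and the accessible regions considered were those within 100 kb of each gene.

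CRH is a neuropeptide best known as the hypothalamic signal that starts the hormonal stress response, and in the cortex it is made locally by interneurons. CRH-binding protein is a secreted protein that takes up CRH and the related peptide urocortin 1 and so limits the peptide that can reach a receptor. CRHR1 is a G-protein-coupled receptor that acts mainly through Gs and cyclic AMP.

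The study profiled chromatin to choose gene regulatory elements (GREs), packed them as a library of AAV9 reporters, and read the reporters out in single nuclei. Single-nucleus RNA-Seq (snRNA-Seq) was made from primary visual cortex (V1) of male C57BL/6J mice aged 6 to 10 weeks, all injected with the SST PESCA AAV9 library, so no nucleus comes from uninjected tissue. ATAC-Seq, which counts transposase cuts in accessible DNA, was made from whole cortex of uninjected mice aged 6 to 12 weeks that carried Sst-IRES-Cre, Pv-Cre or Vip-IRES-Cre together with the Cre-dependent nuclear tag SUN1-2xsfGFP-6xMYC, with 2 samples each of SST, PV and VIP. The labels give these mice as male and the protocol gives both sexes, and tagged nuclei were isolated with an antibody to GFP, so each population holds whatever cells the driver had marked in any cortical area. By the methods, the 2 samples of a population were independent experiments with nuclei of 1 animal each.

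The snRNA-Seq data are 1 deposited sample in 10 libraries, numbered in 2 sets of 5. By the methods, 5 libraries came from each of 2 animals, but neither the methods nor the labels tie a set to an animal. Of 47348 barcodes, 32335 held more than 200 non-viral unique molecular identifiers (UMIs) and were taken as nuclei, with a median of 712 UMIs and, by library, 2457 to 3629 nuclei. Marker gates placed 17567 nuclei in 17 types, and 14768 (45.67%) met no gate. The kept nuclei carry 25866 distinct barcode sequences, of which 5476 occur in more than 1 library. A level below is the number of UMIs of a gene per 10000 non-viral UMIs summed over the nuclei of a type, with an exact Poisson 95% interval, and a share of nuclei has an exact binomial 95% interval. Where no UMI was found, the value of 3 UMIs or nuclei is given as a one-sided limit, which is lower than the upper end of the exact two-sided interval. Both cover counting error only, and with 1 deposited sample no difference between cell types was tested. A level summed over a type cannot tell fewer cells with the transcript from less transcript per cell, so shares of nuclei stand beside the main levels.

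The interneuron gates read Sst, Vip, Pvalb and Npy themselves, so the levels of these genes follow from the gates and do not test the names. SST nuclei held Sst at 162.6 UMIs per 10000, VIP nuclei held Vip at 116.0, PV nuclei held Pvalb at 15.35 and NPY nuclei held Npy at 112.6. The gates allowed no Vip in SST nuclei, no Sst in PV nuclei and neither Sst nor Pvalb in VIP nuclei, while Pvalb was allowed in SST nuclei below the Sst count and stood at 0.602. Of the 275 VIP nuclei, 30 had a single Vip UMI, and of the 479 SST nuclei 26 had exactly 2 Sst UMIs, the fewest that the gates accept. In the chromatin samples, reads over the gene for which each driver is named were highest in its own population. Regions within 1 kb of Sst held 33 and 32 reads in SST against 2 to 4 in the other samples, those of Vip 31 and 41 in VIP against 2 to 7, and those of Pvalb 65 and 77 in PV against 25 to 40.

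Crh, the ligand, lies on chr3:19693401-19695396 (GRCm38, minus strand, 2.0 kb) and overlaps no other annotated gene. Its transcripts were concentrated in VIP interneurons. The 275 VIP nuclei held 414 of the 1049 Crh UMIs, a level of 16.99 per 10000 (95% interval 15.39 to 18.71), and 121 of them (44.0%, 38.0 to 50.1) had at least 1 Crh UMI. PV nuclei, a type of greater depth (median 1270 UMIs per nucleus against 780), held 1 Crh UMI in 432 nuclei (0.231% with a UMI). With each nucleus thinned to 300 UMIs, which left 259 VIP nuclei and 423 PV nuclei, 29.3% of VIP and 0.236% of PV nuclei had a Crh UMI.

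Every one of the 10 libraries held Crh in its VIP nuclei, at levels from 4.914 to 32.38 with a median of 16.18. The libraries of set 1 stood at 21.47, 13.66, 16.98, 32.38 and 19.78 per 10000. Those of set 2 stood at 14.69, 9.923, 24.65, 15.37 and 4.914. The sets overlapped library by library, while the intervals of their summed levels, 20.58 (18.11 to 23.28) and 13.36 (11.38 to 15.58), did not. Each library gave 20 to 33 VIP nuclei. The UMIs were spread unevenly among these nuclei: 154 had none, 38 had 1, 52 had 2 to 4 and 31 had 5 or more, and those 31 held 54.35% of the VIP total. The highest count in a nucleus was 13.

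**Figure D1:**
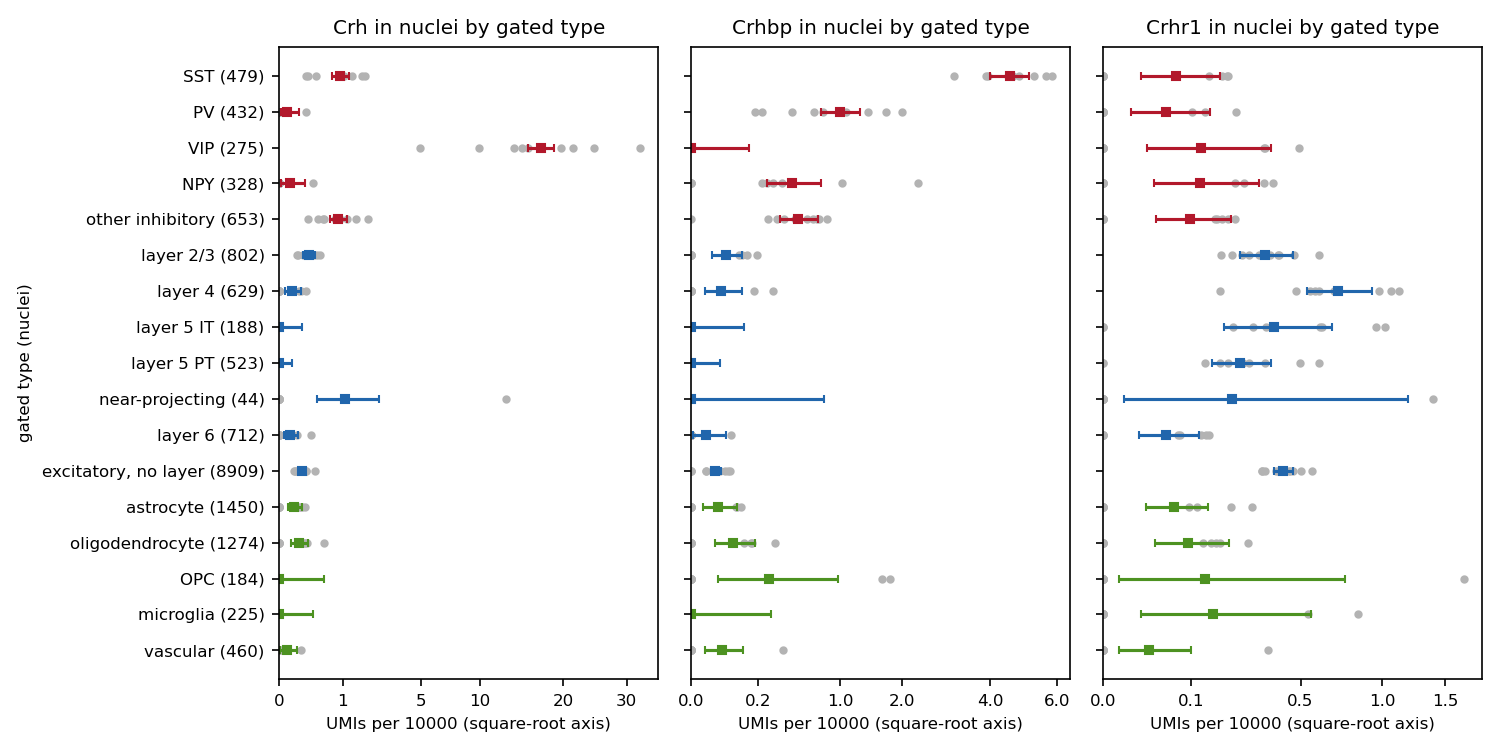
Level of Crh, Crhbp and Crhr1 in each gated type, in UMIs per 10000 on a square-root axis. Squares are the sum over all nuclei of the type with its exact Poisson 95% interval, grey points are the 10 libraries, and the number of nuclei follows each type's name. Crh stands highest in VIP (16.99), Crhbp in SST (4.544) and Crhr1 in layer 4 excitatory neurons (0.708), and the single point far to the right in near-projecting neurons is 1 library in which 1 nucleus held 5 Crh UMIs.

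SST nuclei came far below VIP nuclei. They held 53 Crh UMIs, a level of 0.912 (0.683 to 1.193), in 35 of 479 nuclei (7.31%), with libraries from 0.178 to 1.818, and thinning to 300 UMIs gave 0.571. Inhibitory nuclei outside the SST, PV, VIP and NPY gates stood next at 0.868 (0.652 to 1.132), and these intervals overlapped. The 44 near-projecting nuclei had a level of 1.069 that rested on 5 UMIs in 1 nucleus. NPY nuclei held 1 Crh UMI in 328 nuclei.

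Excitatory neurons held Crh at a low level, and unevenly. Summed over all excitatory types the level was 0.118 on 156 UMIs, with a UMI in 116 of 11807 nuclei (0.983%). Layer 2/3 neurons stood at 0.213 (0.137 to 0.318), with a UMI in each of the 10 libraries and library levels from 0.0791 to 0.413. Layer 4 and layer 6 neurons held 3 UMIs each. No Crh UMI was found in 523 layer 5 PT nuclei, for which the limit at 3 UMIs is a level of 0.0313. Their median depth of 1741 UMIs was the highest of any type. Layer 5 IT neurons (188 nuclei), oligodendrocyte precursors (OPC, 184 nuclei) and microglia (225 nuclei) also had none. Apart from VIP at the top and the step from the other inhibitory nuclei down to layer 2/3, the intervals of all neighbours in the order of types overlapped.

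In excitatory neurons the library sets likewise overlapped library by library but not in their summed levels. The level was 0.169 (0.138 to 0.205) in set 1 and 0.0733 (0.0547 to 0.0961) in set 2, with libraries from 0.0936 to 0.256 and from 0.0473 to 0.105. The VIP level was also the higher in set 1. RNA free in the droplets carries transcripts into other nuclei, and the barcodes with 200 or fewer UMIs were used as a comparison for it, although how much of their RNA came from nuclei of low yield was not tested. They had 48 Crh UMIs in 15013 barcodes, a level of 0.264 (0.194 to 0.350). That was above the excitatory level and within the interval of layer 2/3. The part of free RNA in the excitatory level was not tested beyond these values.

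Within VIP nuclei, Crh was low where Calb2 was present. Calb2 encodes calretinin, a calcium-binding protein that marks a subset of VIP interneurons, and it was on the VIP marker list but not used by the VIP gate. The 51 VIP nuclei with a Calb2 UMI held 19 Crh UMIs, a level of 3.657 (2.202 to 5.711), and the 224 without one stood at 20.60 (18.62 to 22.73). The Calb2 nuclei were lower in 10 of 10 libraries. Their median depth was 915 against 755 UMIs, and the part of depth in the difference was not tested. A Crh UMI was present in 13.7% of the former and 50.9% of the latter.

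Npy and Cck divided the Crh level of VIP nuclei less. With an Npy UMI (neuropeptide Y) the Crh level was 21.67 (17.74 to 26.21) in 50 nuclei, and without it 15.81 (14.09 to 17.68), the first being higher in 7 of 10 libraries. The shares of nuclei with a Crh UMI stood further apart, at 68.0% (53.3 to 80.5) with Npy and 38.7% (32.3 to 45.4) without. The median depth of these groups was 881 and 755 UMIs. For Cck, the gene of the neuropeptide cholecystokinin, the levels were 15.72 with and 17.75 without, and their intervals overlapped. VIP nuclei with a single Vip UMI had a Crh level of 7.184 (4.257 to 11.35) and those with 2 or more 18.11 (16.37 to 19.99).

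In SST nuclei Crh went the other way with Npy. The 290 SST nuclei with an Npy UMI stood at 0.592 (0.375 to 0.888) and the 189 without at 1.559 (1.052 to 2.225), lower with Npy in 9 of 10 libraries. None of the 13 SST nuclei with a Calb2 UMI held Crh, with a limit at 3 UMIs of 1.515 per 10000 for that small group.

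**Figure D2:**
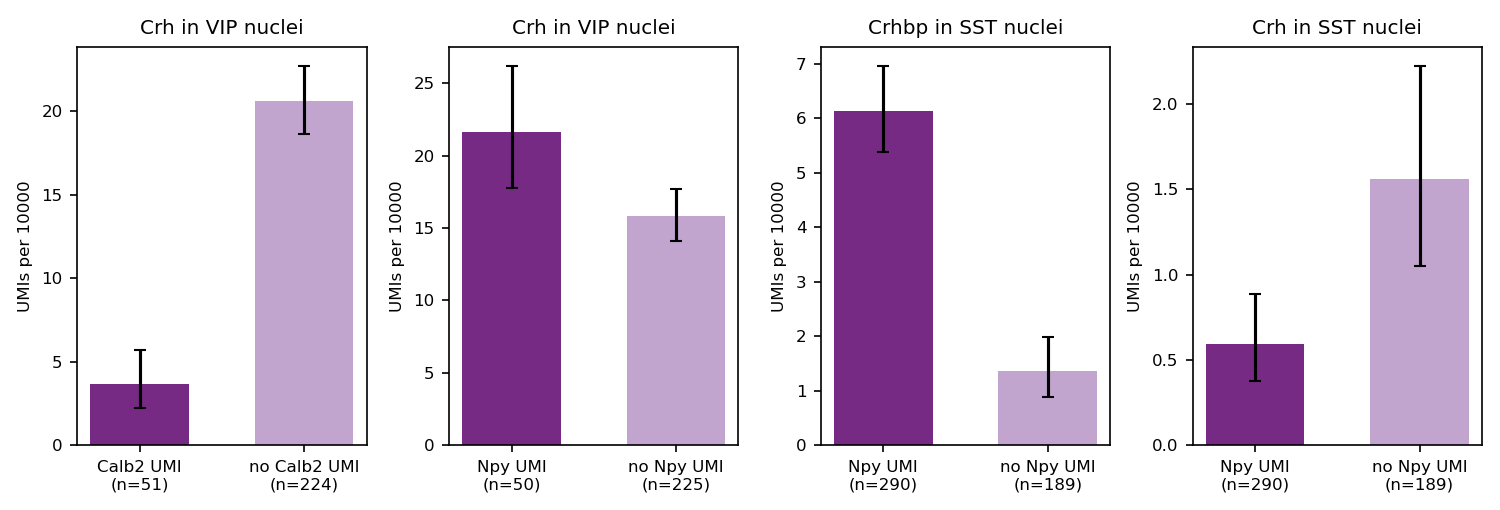
Level of Crh or Crhbp in VIP or SST nuclei divided by a UMI of Calb2 or Npy, in UMIs per 10000 from 0, with exact Poisson 95% intervals and the number of nuclei under each bar. Crh was 3.657 with and 20.60 without Calb2 in VIP nuclei, and in SST nuclei Npy went with more Crhbp (6.126 against 1.351) and less Crh (0.592 against 1.559).

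Nuclei that meet both markers were rare. Among gated inhibitory nuclei, 283 had Vip and no Sst, and their Crh level was 16.20. The 543 with Sst and no Vip stood at 0.963 (0.740 to 1.232), the 1332 with neither at 0.262, and the 9 with both at 4.567 (1.244 to 11.69). Over all 32335 nuclei, 39.9% of the 499 with a Crh UMI also had a Vip UMI, against 1.4% of the nuclei without Crh. Of those 499, 9 (1.804%) had a Crhbp UMI and 13 (2.605%) a Crhr1 UMI, against 1.087% and 2.481% of the nuclei without Crh.

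The chromatin at the Crh start was accessible in VIP nuclei. A region that covers the start, chr3:19695125-19695725, held 21 and 39 reads in the VIP samples, 2 and 3 in SST and 4 and 2 in PV. As CPM, the reads scaled to the total of the sample after TMM adjustment, those values were 11.1 and 20.1 in VIP. They were between 0.976 and 1.94 in the other samples. VIP did not overlap SST or PV, which overlapped each other. Against the mean of SST and PV the log2 fold was 3.26 (SE 0.453, adjusted p = 2.29e-05, edgeR quasi-likelihood test adjusted over 40338 regions). This was 1 of the 3 tested regions within 100 kb of Crh that was called, and across all tested regions 24.9% were called higher in VIP. The region passed the filter on low counts through the VIP samples alone. The region is well conserved (mean phyloP 1.39, a score that is positive where bases change slowly between mammals), and it overlaps no peak in the deposited list of any of the 6 samples.

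The region over an exon of Crh did not follow this order. At chr3:19693768-19694534, centred 1.25 kb downstream of the start, SST held 134 and 86 reads, PV 106 and 80, and VIP 82 and 103. The populations overlapped, all 6 samples had a peak there, and no contrast passed the test (adjusted p = 0.584 for SST and 0.356 for VIP, edgeR). Without SST sample 2, SST was called higher at 0.60 (adjusted p = 0.0147) and VIP lower at -0.41 (adjusted p = 0.0248). Its mean phyloP was 1.12. Of the 30 reference regions within 100 kb of Crh, 27 had too few reads to be tested.

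**Figure D3:**
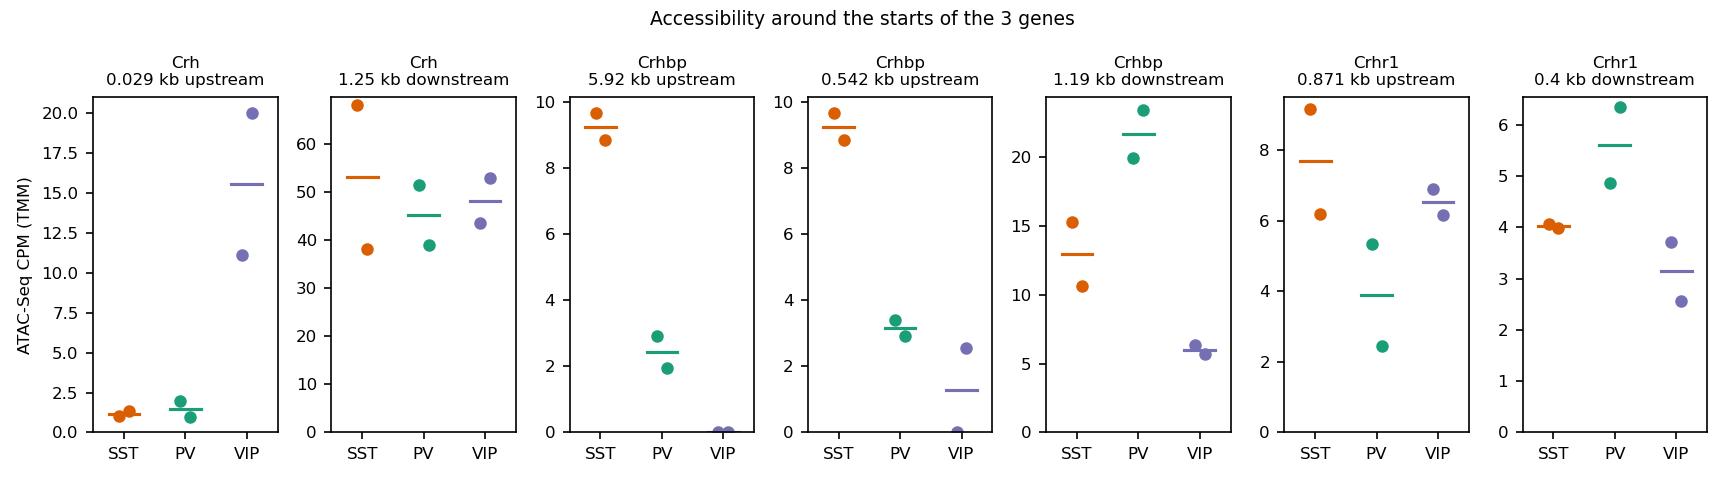
ATAC-Seq CPM (TMM-scaled) in 7 regions at or near the starts of Crh, Crhbp and Crhr1, each panel with its own axis from 0. Points are the 2 samples of each population and the line is their mean. VIP stands alone at the Crh start (11.1 and 20.1), SST stands highest in both regions upstream of Crhbp with VIP at 0 in the one 5.92 kb away, and no population passed a test in the panels of Crhr1.

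Crhbp, the binding protein, lies on chr13:95431371-95444924 (minus strand, 13.6 kb) with no overlapping gene. Its 556 UMIs were concentrated in SST interneurons and, at a lower level, in PV interneurons. The sequences below are the central 300 bases of the 2 nearest upstream regions, both called higher in SST, and the promoter. No reference region covers the printed promoter, which lies between the nearer upstream region and the one just inside the gene. Capitals mark the motifs found by an exact search of both strands.

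Crhbp promoter, RefSeq, GRCm38.p6 chr13:95444782-95445081, minus strand: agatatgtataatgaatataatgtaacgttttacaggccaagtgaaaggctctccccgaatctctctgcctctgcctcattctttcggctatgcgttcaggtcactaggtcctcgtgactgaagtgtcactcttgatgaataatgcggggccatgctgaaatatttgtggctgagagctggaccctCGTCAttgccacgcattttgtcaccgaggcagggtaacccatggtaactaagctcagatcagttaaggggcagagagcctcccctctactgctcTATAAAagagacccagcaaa
Crhbp region 0.542 kb upstream, GRCm38.p6 chr13:95445317-95445616, plus strand: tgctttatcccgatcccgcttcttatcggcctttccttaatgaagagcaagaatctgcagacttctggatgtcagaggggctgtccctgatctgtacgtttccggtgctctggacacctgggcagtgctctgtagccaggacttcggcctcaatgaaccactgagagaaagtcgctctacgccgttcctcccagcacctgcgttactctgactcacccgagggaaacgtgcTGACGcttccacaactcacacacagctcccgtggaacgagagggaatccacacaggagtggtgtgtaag
Crhbp region 5.92 kb upstream, GRCm38.p6 chr13:95450700-95450999, plus strand: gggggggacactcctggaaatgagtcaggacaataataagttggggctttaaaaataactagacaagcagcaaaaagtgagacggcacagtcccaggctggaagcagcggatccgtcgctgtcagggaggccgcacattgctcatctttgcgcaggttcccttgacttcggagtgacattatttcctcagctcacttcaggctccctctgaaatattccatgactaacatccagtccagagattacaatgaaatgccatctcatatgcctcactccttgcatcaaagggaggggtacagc

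The promoter holds the letters TATAAA, searched as a TATA box (in 13.6% of 32851 RefSeq promoters of the same length). They lie in the 50 bases after the RefSeq start, not before it, so they are not named as a TATA box of that start. The promoter also holds the core of the cyclic AMP response element (TGACG, here read as CGTCA on the printed strand, in 20.8%). The nearer region holds the same core, found in 22.9% of the central 300 bases of 40329 tested regions. The farther region holds none of the motifs searched, which were these together with the full cyclic AMP response element TGACGTCA, which contains TGACG, and the homeodomain core TAATTA. A match of these lengths is a description of the letters and shows no binding.

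SST nuclei held 264 Crhbp UMIs, a level of 4.544 (4.012 to 5.126), and 134 of 479 nuclei (27.97%, 24.0 to 32.2) had at least 1. Their libraries ranged from 3.103 to 5.839 with a median of 4.599, and every library of SST nuclei lay above every library of PV nuclei. VIP nuclei held no Crhbp UMI in any library, for which the limit at 3 UMIs is a level of 0.123. With nuclei thinned to 300 UMIs, 10.28% of SST nuclei had a Crhbp UMI. The SST level was 4.964 in library set 1 and 4.223 in set 2.

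PV nuclei held 59 Crhbp UMIs, a level of 0.991 (0.754 to 1.278), in 46 of 432 nuclei (10.65%). All 10 libraries had some, from 0.182 to 1.988, and set 2 (1.179) stood above set 1 (0.675) with overlapping intervals. The low barcodes held 46 Crhbp UMIs, a level of 0.253 (0.185 to 0.337), which was below the interval of PV nuclei.

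The other inhibitory nuclei stood at 0.514 (0.352 to 0.726) and NPY nuclei at 0.456 (0.255 to 0.752), with overlapping intervals. In NPY nuclei 1 library, 1-3, held 7 of the 15 UMIs, all of them in a single nucleus. The NPY level was 0.183 in library set 2 alone and 0.0331 in the Seurat cluster named for NPY. Layer 2/3, layer 4 and layer 6 nuclei held 6, 3 and 1 UMIs, and layer 5 PT nuclei held none. Summed over excitatory types the level was 0.0257 (0.0178 to 0.0359), with a UMI in 0.271% of nuclei at a median depth of 1029 UMIs. Apart from SST above PV and PV above the other inhibitory nuclei, no type was separated by its interval from its neighbour in the order.

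Crhbp was uneven within SST nuclei, and most of it lay in nuclei with Npy. The 290 SST nuclei with an Npy UMI held 238 of the 264 Crhbp UMIs, a level of 6.126 (5.372 to 6.955). The 189 without held 26, a level of 1.351 (0.882 to 1.979). The level was higher with Npy in 10 of 10 libraries, and the Npy nuclei were also deeper, with a median of 1192 against 859 UMIs; the part of this depth in the difference was not tested. A Crhbp UMI was seen in 39.7% of the first group and 10.1% of the second.

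Levels in smaller groups of SST nuclei rested on fewer nuclei, and the Poisson interval treats the UMIs of 1 nucleus as independent. The 9 nuclei with Chodl, a marker of long-range projecting SST neurons, held 24 Crhbp UMIs in 4 nuclei, a level of 22.38 (14.34 to 33.29), but only 4 libraries had such a nucleus and the level was higher with Chodl in 2 of them and lower in 2. The 13 with Calb2 stood at 10.6 (6.563 to 16.21) against 4.33 (3.803 to 4.910) in the rest, higher in 4 of 7 libraries. The shares of nuclei with a Crhbp UMI overlapped for both genes. They were 44.4% (13.7 to 78.8) with Chodl against 27.7% (23.7 to 31.9) without. With Calb2 the share was 46.15% (19.2 to 74.9), against 27.5% (23.5 to 31.8) without. The 13 with Tac1, the gene of substance P, held 1 Crhbp UMI. With Hpse the level was 4.595 and without it 4.538, and the intervals overlapped. In PV nuclei, those with Tac1 stood at 1.706 (1.042 to 2.635) and those without at 0.816 (0.580 to 1.115), higher with Tac1 in 8 of 10 libraries.

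Across all nuclei, 54.9% of the 355 with a Crhbp UMI had an Sst UMI, against 4.88% of those without. Npy was present in 48.2% and Pvalb in 18.3% of the 355, and Vip in 3 nuclei. The nuclei with Crhbp were deeper, at a median of 1192 against 707 UMIs.

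The regions near Crhbp that had enough reads to be tested mostly had more reads in SST and fewer in VIP. All 7 tested regions within 100 kb were called in at least 1 contrast. In SST, 5 of 7 were higher, where 8.15% of all tested regions were, but with DESeq2, and in edgeR without the filter on low counts, only the SST call 5.92 kb upstream passed among these 5. In VIP, 7 of 7 were lower, where 24% of all tested regions were. The VIP calls 0.542 and 25.5 kb upstream and 19.1 kb downstream were lost in edgeR without that filter, and the first also with DESeq2. The region over the start of another gene, Aggf1, lies 69.7 kb downstream and was not called in SST (adjusted p = 0.308, edgeR). Its VIP call was not followed singly in these runs. In PV 1 of 7 was higher, where 17.1% were, a call that was lost in edgeR without that filter. The median log2 fold of the 7 was 1.95 in SST and -2.2 in VIP, against 0.0562 and -0.0547 over all tested regions. The filter asks for about 10 reads in at least 2 samples. The regions 0.542, 5.92 and 25.5 kb upstream and 19.1 kb downstream reached that in SST alone. The counts and medians were thus in part fixed by the filter, and no enrichment is read from them. The 3 contrasts share the same 6 samples, so they are not independent counts, and the other 32 regions in the window had too few reads to be tested.

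The region 5.92 kb upstream, chr13:95450461-95451237, held 19 and 20 reads in SST, 6 and 4 in PV and 0 and 0 in VIP. The populations did not overlap. It was called higher in SST (adjusted p = 0.000426, edgeR) and lower in VIP (adjusted p = 0.000271, edgeR), and the SST mean of 9.23 CPM was at least 11.8-fold higher than VIP, whose floor of 3 reads over both samples is 0.783. PV, at 2.44, was at least 3.11-fold higher than VIP. Its mean phyloP was 0.399. The region lies outside any gene, and both SST samples and 1 PV sample had a peak there.

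Nearest the start, chr13:95445131-95445801 held 19 and 20 reads in SST, 7 and 6 in PV, and 0 and 5 in VIP. It was higher in SST with a log2 fold of 2.20 (SE 0.508, adjusted p = 0.00795, edgeR). The VIP call, a log2 fold of -2.25 (adjusted p = 0.0104, edgeR), rested on the sample without reads: without VIP sample 1 it was -1.26 (adjusted p = 0.168). With DESeq2 neither call passed, at adjusted p = 0.0905 for SST and 0.0534 for VIP, and without the filter on low counts both were lost in edgeR (0.174 and 0.169).

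Just inside the gene the order of populations was another. The region chr13:95443233-95444229, centred 1.19 kb downstream of the start and overlapping an exon, held 41 and 48 reads in PV, 30 and 24 in SST and 12 and 11 in VIP. PV was higher with a log2 fold of 1.5 (SE 0.310, adjusted p = 0.00227, edgeR) and VIP lower at -1.72 (adjusted p = 0.00098, edgeR). Without the filter on low counts the PV call was lost (adjusted p = 0.0844, edgeR) and the VIP call was kept (0.0318). All 6 samples had a peak there.

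Farther away, 3 more regions were higher in SST. At 25.5 kb upstream, chr13:95470060-95470809, SST held 13 and 14 reads, PV 6 and 5, and VIP 1 and 2, with an SST log2 fold of 2.13 (adjusted p = 0.00836, edgeR). At 19.1 kb downstream of the start, past the end of the gene at chr13:95425364-95426373, the reads were 18 and 16, 9 and 5, and 2 and 3 in the same order, with a log2 fold of 1.95 (adjusted p = 0.00845, edgeR). The last, chr13:95346855-95347710 at 97.6 kb downstream, had 28 and 44, 27 and 25, and 9 and 10 reads, and a log2 fold of 1.14 (adjusted p = 0.0234, edgeR). In each of the 3 regions SST was highest and VIP lowest without overlap. None of these 3 SST calls passed with DESeq2, or in edgeR without the filter on low counts (adjusted p = 0.141, 0.146 and 0.239), and without that filter the VIP calls of the first and second were lost as well (0.0746 and 0.0923). The first was lost without either SST sample (adjusted p = 0.0792 and 0.0786), and its VIP call without either VIP sample (0.0792 and 0.0511). The second kept its SST call under each sample left out, and its VIP call was lost without VIP sample 1 (adjusted p = 0.0591). The last was lost without any 1 sample but SST sample 1, at adjusted p from 0.0579 to 0.128.

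**Figure D4:**
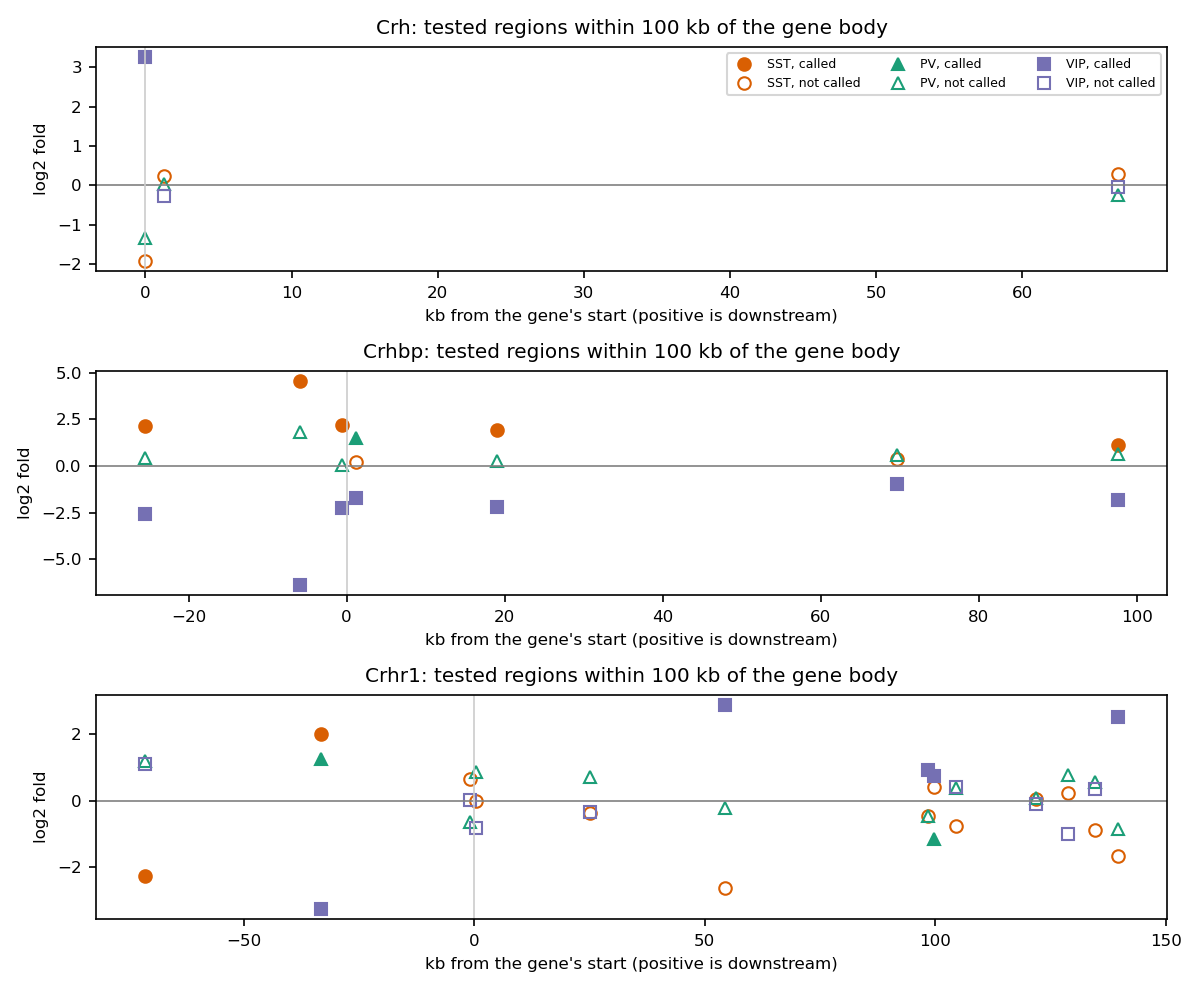
Fitted log2 fold of each tested region within 100 kb of the gene bodies of Crh, Crhbp and Crhr1, by distance in kb from the gene's start, for each population against the mean of the other 2. Filled symbols passed an adjusted p of 0.05 (edgeR). All 7 Crhbp regions are lower in VIP and 5 are higher in SST, of which 1 SST call passed with DESeq2 or without the filter on low counts. The VIP calls 0.542 and 25.5 kb upstream and 19.1 kb downstream of the Crhbp start were lost without that filter, and the first also with DESeq2. The VIP call at the start of Aggf1 was not followed singly. The fitted values 5.92 kb upstream of Crhbp depend on the prior count because VIP had no read there, and they are not bounds.

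Crhr1, the receptor, lies on chr11:104132855-104175523 (plus strand, 42.7 kb) with no overlapping gene. Its 887 UMIs lay mainly in excitatory neurons, where each positive nucleus held few. The promoter is shown for contrast with that of Crhbp: it is GC-rich, at 75.0% G and C against 48.0% for Crhbp, and holds none of the motifs searched.

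Crhr1 promoter, RefSeq, GRCm38.p6 chr11:104132531-104132830, plus strand: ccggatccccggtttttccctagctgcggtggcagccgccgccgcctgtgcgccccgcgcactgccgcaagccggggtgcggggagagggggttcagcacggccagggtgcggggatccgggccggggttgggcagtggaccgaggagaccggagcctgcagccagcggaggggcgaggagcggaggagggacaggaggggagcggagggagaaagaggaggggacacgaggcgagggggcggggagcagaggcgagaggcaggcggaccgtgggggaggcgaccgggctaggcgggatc

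Summed over excitatory types the Crhr1 level was 0.384 (0.352 to 0.419), with 509 UMIs in 455 of 11807 nuclei (3.85%). Inhibitory nuclei had 20 UMIs, a level of 0.0843 (0.0515 to 0.1303) and a UMI in 0.877% of nuclei, and glial and vascular nuclei had 17, a level of 0.0682 (0.0398 to 0.109). The median depth was 1029 UMIs in excitatory and 974 in inhibitory nuclei. By library the excitatory level ran from 0.299 to 0.474 and the inhibitory level from 0.0414 to 0.143, without overlap. No nucleus held more than 4 Crhr1 UMIs.

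Among gated excitatory neurons, layer 4 stood highest and layer 6 lowest. Layer 4 nuclei held 54 UMIs in 49 of 629 nuclei (7.79%), a level of 0.708 (0.532 to 0.923), with libraries from 0.177 to 1.119 and a median of 0.639. Layer 6 nuclei held 5 UMIs in 712 nuclei, a level of 0.0503 (0.0163 to 0.117), in 5 of 10 libraries. That is below the level of the low barcodes, which was 0.236 (0.171 to 0.318). The median depth was 1285 UMIs in layer 6 and 1050 in layer 4 nuclei, and the part of depth in their levels was not tested.

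The other excitatory types with at least 50 nuclei lay between them. Excitatory nuclei that met no layer gate stood at 0.416 (0.375 to 0.460), layer 5 IT at 0.374 (0.187 to 0.670, with 0.708 in library set 1 and 0.166 in set 2), layer 2/3 at 0.338 (0.239 to 0.464) and layer 5 PT at 0.240 (0.152 to 0.360). Layer 4 was separated by its interval from the nuclei next to it in the order, and in the order of all 17 types no neighbours below it were separated. Among excitatory types alone layer 5 PT and layer 6 did not overlap, and the nuclei without a layer and those of layer 5 PT, which are not neighbours, did not overlap. The intervals of layer 5 IT, layer 2/3 and layer 5 PT overlapped that of the low barcodes (0.171 to 0.318), and the layer 5 PT level lay inside it. Thinned to 300 UMIs, 2.72% of layer 4 nuclei had a UMI, 1.49% of those without a layer, 1.004% in layer 2/3, 0.546% (1 nucleus) in layer 5 IT and 0.385% (2 nuclei) in layer 5 PT. None of 710 thinned layer 6 nuclei had one, which allows a share of up to 0.4225%.

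In interneurons Crhr1 was near the limit of detection. SST, PV, VIP and NPY nuclei held 4, 3, 3 and 4 UMIs, and the other inhibitory nuclei 6. Their levels, from 0.0504 in PV to 0.123 in VIP, lay below the level of the low barcodes, so no order among interneurons can be read from them. Expression below this depth cannot be seen here.

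For Crh and Crhbp, clusters built without the 3 genes gave the same leading types. Seurat clusters of all 32335 nuclei were named from the marker lists, by a rule set after the clusters had been seen. The VIP cluster (605 nuclei) held 645 Crh UMIs, 61.5% of all, at a level of 13.95 (12.9 to 15.07), and 4 Crhbp UMIs. The SST cluster (869 nuclei) held 335 Crhbp UMIs, 60.25% of all, at a level of 3.984 (3.569 to 4.435), and 94 Crh UMIs at 1.118. The PV cluster (1225 nuclei) held 126 Crhbp UMIs at 0.975 and 9 Crh UMIs.

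For Crhr1, the highest of the 4 clusters named by the layer 4 list (3672 nuclei) held 275 UMIs, a level of 0.912 (0.807 to 1.026), and the other 3 stood at 0.444, 0.482 and 0.567. The 3 clusters named by the layer 6 list stood between 0.0565 and 0.107, and the cluster named for near-projecting neurons (552 nuclei) was as low at 0.0736 (0.0152 to 0.215). In the clusters named for layer 2/3 the level ran from 0.0799 to 0.483, so 2 of the 4 layer 4 clusters were no higher than the highest of these.

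**Figure D5:**
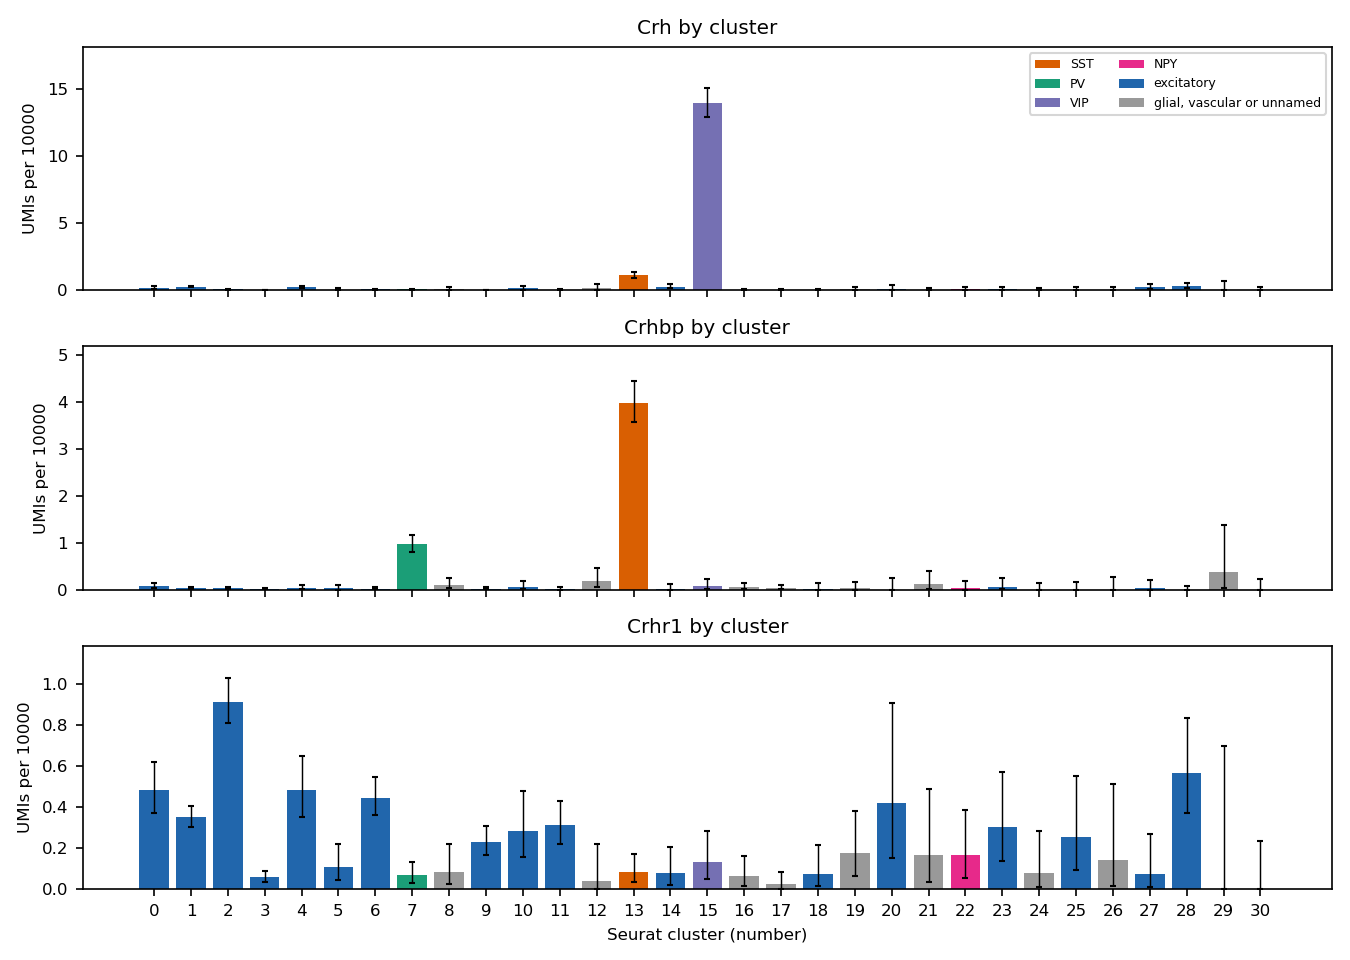
Level of the 3 genes in the Seurat clusters of at least 50 nuclei, in UMIs per 10000 with exact Poisson 95% intervals, coloured by the type whose marker list named the cluster. Crh stands out in cluster 15 (VIP, 13.95), Crhbp in cluster 13 (SST, 3.984) and then cluster 7 (PV, 0.975), and Crhr1 is spread over excitatory clusters with cluster 2 highest at 0.912.

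Near Crhr1, no region at the start was called. The region over the start, chr11:104132357-104134154, held 8 and 9 reads in SST, 10 and 13 in PV and 7 and 5 in VIP, PV being highest without overlap. The one 0.871 kb upstream, chr11:104131618-104132351, held 18 and 14, 11 and 5, and 13 and 12. Neither passed any contrast (edgeR). The size of difference detectable at these read counts was not tested, so equal accessibility is not shown.

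Of the 13 tested regions within 100 kb of Crhr1, 6 were called in some contrast. In VIP 4 were higher and 1 lower, 30.8% and 7.69% of the 13 against 24.9% and 24% of all tested regions. In SST 1 was higher and 1 lower, each 7.69% against 8.15% and 5.41%, and in PV likewise 1 and 1, against 17.1% and 11.7%. Some of the regions higher in VIP passed the filter on low counts through VIP alone, as given below. The VIP lower and PV higher shares lay below the background, but 1 region makes 7.69% of the 13, and nothing about the populations is read from these counts.

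The clearest change was 33.1 kb upstream of Crhr1. Region chr11:104099361-104100069 held 31 and 38 reads in SST, 23 and 21 in PV and 2 and 4 in VIP, without overlap. The log2 fold was 2.01 in SST (SE 0.361, adjusted p = 0.00153), 1.26 in PV (adjusted p = 0.0211) and -3.27 in VIP (SE 0.474, adjusted p = 3.34e-05), all by edgeR. The PV call did not pass with DESeq2 or when either PV or either VIP sample was left out (adjusted p from 0.0571 to 0.163), while the SST and VIP calls did. Without the filter on low counts the SST and PV calls were lost (adjusted p = 0.0528 and 0.274, edgeR) and the VIP call was kept (0.00274).

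VIP was highest in regions inside other genes, and SST was lowest in 1 region outside any gene. At 54.4 kb downstream of the start, in an exon of Sppl2c at chr11:104186757-104187668, VIP held 16 and 14 reads, SST 2 and 0, and PV 2 and 4, a VIP log2 fold of 2.88 (adjusted p = 0.000675, edgeR) that was lost without VIP sample 1 (adjusted p = 0.056). In an intron of Mapt, the gene of the tau protein, chr11:104272151-104272870 held 19 and 26 reads in VIP, 2 and 4 in SST, and 5 and 3 in PV, a log2 fold of 2.53 (adjusted p = 0.000182, edgeR). Both this region and the one in Sppl2c passed the filter on low counts through the VIP samples alone. At 71.4 kb upstream, chr11:104061003-104061913, SST was the lower, with 2 and 2 reads against 9 to 12 in the other samples and a log2 fold of -2.29 (adjusted p = 0.0174, edgeR), a call that did not pass with DESeq2, without the filter on low counts (adjusted p = 0.172, edgeR) or without any 1 sample but VIP sample 1 (adjusted p from 0.0527 to 0.0894).

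In another intron region of Mapt, 99.6 kb downstream of the Crhr1 start at chr11:104232110-104232844, PV was the lower. It held 26 and 20 reads in PV, 38 and 68 in SST and 63 and 65 in VIP, so PV did not overlap the others. The log2 fold was -1.16 in PV (adjusted p = 0.00891, edgeR) and 0.75 in VIP (adjusted p = 0.0272, edgeR). The PV call was lost without the filter on low counts (adjusted p = 0.0792, edgeR) and without either PV sample (0.0586 and 0.113). The VIP call was lost with DESeq2 (adjusted p = 0.0823), without that filter (0.0582, edgeR), and without PV sample 2 or either VIP sample (0.0736 to 0.112).

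Of the 287 GREs that the study screened, 1 lay within 500 kb of any of the 3 genes. This was GRE283, chr11:103906279-103906644, in an intron of Nsf and 226 kb from Crhr1.

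The other members of the peptide family were scarcely seen. Urocortin genes, which encode the related ligands, had 6 (Ucn), 36 (Ucn2) and 16 (Ucn3) UMIs in all nuclei. Crhr2, the second receptor, had 71, with its highest level in SST nuclei at 0.138 (0.0595 to 0.271) on 8 UMIs, an interval that overlapped that of the next type. No type was separated from the next for any of the 4 genes.

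Of 19 genes of cyclic AMP signalling, the pathway downstream of CRHR1, 5 had a leading type separated from the next by its interval among the 16 types with at least 50 nuclei. The share of all genes with such a leading type was not computed, so no result about the pathway is read from this count. Gnas, which encodes the alpha subunit of Gs, was highest in vascular nuclei at 21.52 (20.46 to 22.61) and next in VIP nuclei at 16.99. Prkar1b, a regulatory subunit of protein kinase A, was highest in VIP at 8.371 (7.261 to 9.602). The adenylyl cyclase Adcy9 led in layer 6 at 2.626 (2.317 to 2.964), the type in which Crhr1 was lowest among excitatory layers. The phosphodiesterase genes Pde4b and Pde1a, whose products degrade cyclic AMP or cyclic nucleotides, led in oligodendrocytes (3.418) and layer 5 IT neurons (8.642). In the 44 near-projecting nuclei, outside that order, the adenylyl cyclase gene Adcy2 stood at 9.189 (6.65 to 12.38), above VIP nuclei at 4.267 (3.487 to 5.171).

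In the list of genes of the glucocorticoid response, which lies downstream of CRH in the body's stress axis, 2 of 8 had such a leading type among the same 16 types. Here too the share over all genes was not computed, and nothing about the response is read from the count. Hsd11b1, the enzyme that restores active glucocorticoid, led in astrocytes at 1.277 (1.057 to 1.530). Sgk1, a kinase gene induced by glucocorticoid, led in vascular nuclei at 3.210 (2.811 to 3.651). The receptor genes Nr3c1 and Nr3c2 were highest in oligodendrocytes (4.198) and VIP nuclei (0.862), and their intervals overlapped those of the next type.

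Likeness of pattern was measured as Pearson's r of log2(UMIs per 10000 + 0.1) over the 16 gated types with at least 50 nuclei, among 8754 genes with at least 500 UMIs that are no marker. The points share libraries and depth, so r is a description. Closest to Crh were Synpr (r = 0.879), Lurap1l (0.836), Gng4 (0.832), Shisa6 (0.798) and Penk (0.789), all highest in VIP nuclei. Synpr encodes the synaptic vesicle protein synaptoporin and Penk the opioid peptide precursor proenkephalin.

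Closest to Crhbp were Foxred2 (r = 0.874), Rab3b (0.871), Nxph1 (0.849), Cacna2d2 (0.838) and Grik1 (0.834), of which Foxred2, Rab3b and Grik1 were highest in SST nuclei. Rab3b encodes a small GTPase of secretory vesicles and Grik1 a kainate receptor subunit. Closest to Crhr1 were Coch (0.937), Epha4 (0.923), Plcxd2 (0.903), Nptxr (0.897) and Sphkap (0.894), 4 of them highest in layer 4 and Nptxr in layer 2/3. Between the members r was 0.158 for Crh and Crhbp, -0.111 for Crh and Crhr1, and -0.380 for Crhbp and Crhr1.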

How the data were processed

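Whole-number UMI counts per gene and barcode were deposited for 10 snRNA-Seq libraries, and read counts on 323369 reference regions, pooled by the authors over many cortical data sets, were deposited for 6 ATAC-Seq samples (1801883 to 2256073 reads each). Peak lists with a −log10 q-value per sample and a mean phyloP score per region were also deposited. The submitters' processing notes name Subread 1.4.6-p3, Trimmomatic 0.33, MACS2 and featureCounts, with build GRCm38 (mm10). The authors' binary and fold columns on regions and GREs hold their own comparisons and were not used.

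Barcodes above 200 non-viral UMIs, taken as nuclei, were gated on 107 of 109 listed markers with a column. Glial and excitatory gates asked for 3 UMIs of 2 genes, inhibitory gates for 2 UMIs of 2 genes including a GABA gene, then 1 UMI of Vip, Pvalb or Npy, or 2 of Sst. A layer needed 2 more UMIs than any other layer. Inhibitory nuclei could hold excitatory UMIs up to their inhibitory count, and glial UMIs below that count or below 3. Glial nuclei needed more glial than excitatory UMIs and no GABA gene. Excitatory nuclei held no GABA gene and at most 2 UMIs of a glial list, but were not screened for Sst or Vip. They held 509 Sst and 126 Vip UMIs. Mixed nuclei were therefore not all left out, and no doublet caller was run. The 3 genes entered neither gates nor the variable genes of the clusters. A marker counted for a cluster at 0.3 of its highest cluster or more, a rule that replaced an earlier one after the clusters were seen.

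Regions were fitted with edgeR (glmQLFit, glmQLFTest, TMM, filterByExpr), each population against the mean of the other 2, with Benjamini-Hochberg adjustment over 40338 regions, and checked on simulated counts. DESeq2, no filter, a replicate block, other windows and each sample left out were tried. The members and lists were chosen with earlier results of these data known. Named were the 3 genes in every type, 3 pathway lists, 5 genes of closest pattern each, regions within 1 kb of a start, up to 5 called regions of largest change per gene, and GREs within 500 kb. Promoter sequences (250 bases before to 50 after the start) were found in RefSeq for 2 of the 3 genes. Their RefSeq starts differ from the annotated starts used for distances, and the printed Crhr1 promoter ends before its annotated start. Annotation was GENCODE on GRCm38, the build of the files. Tools were R 4.3.3, edgeR 4.0.16, DESeq2 1.42.0, Seurat 5.3.0, python 3.11.15, numpy 2.4.6, scipy 1.17.1, pandas 2.3.3 and pysam 0.24.0.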

Additional observations from a re-analysis of the deposited data

Results flagged for a closer look

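In NPY nuclei, the Crhbp level of library 1-3 was 2.311 UMIs per 10000 and stood apart from the other 9 libraries, with a gap to the next library of 0.561 of the whole range. The 7 Crhbp UMIs of that library all lay in 1 nucleus. Such a gap test was made on 12 groups of libraries, and chance flags about 1 group in 20.

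Counts of the 3 genes were also present in barcodes that entered no comparison between types. The 15013 barcodes at or under 200 UMIs held 48 UMIs of Crh, 46 of Crhbp and 43 of Crhr1. The 14768 nuclei that met no gate held 358 UMIs of Crh, 139 of Crhbp and 341 of Crhr1, at levels of 0.346, 0.134 and 0.329 per 10000. Among those ungated nuclei, 36.8% of the 190 with a Crh UMI had a Vip UMI, against 1.28% of those without Crh, and 54.2% of the 96 with a Crhbp UMI had an Sst UMI, against 4.75%.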

How the results depend on the processing

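Of the regions called near the 3 genes (7 in SST, 3 in PV, 13 in VIP), DESeq2 kept 2 SST (5.92 kb upstream of Crhbp and 33.1 kb upstream of Crhr1), 2 PV and 9 VIP calls. Without a filter on low counts 1 SST (5.92 kb upstream of Crhbp), 0 PV and 8 VIP calls were left, and all of these were among the calls with it, with 115 in place of 23 regions tested here. Single regions were followed only where they were named, so not every lost call is given above. Windows of 50 kb and 200 kb gave 8 and 22 VIP calls. Leaving out each sample in turn gave 5 to 9 SST, 1 to 7 PV and 9 to 15 VIP calls. With the replicate number as a block the counts were 7, 3 and 13. Samples of the same number did not deviate together (r of their deviations 0.0233 for SST and PV, 0.0297 for SST and VIP, -0.0366 for PV and VIP), so the numbers do not pair them. No called value of a named region changed sign under any alternative run. The VIP call at the Crh start and both calls 5.92 kb upstream of Crhbp passed under all of them.

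The Crh level in VIP nuclei (16.99) was 19.06 with a stricter gate, 13.95 in the Seurat cluster, and 20.58 and 13.36 in library sets 1 and 2. Crhbp in SST (4.544) was 3.975 and 3.984 with the stricter gate and the cluster. Crhr1 in excitatory neurons (0.384) was 0.431 and 0.344 in sets 1 and 2 and 0.476 with nuclei thinned to 300 UMIs. Crhr1 counts in interneurons and regions with under about 10 reads lay near the limit of detection. The causes were not tested.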
